A study of Rattus norvegicus with 12 samples.

Results

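The cardiac transcription factors described here were Gata4, Gata6, Mef2a, Mef2c, Mef2d, Nkx2-5, Tbx5, Tbx20, Srf and Myocd. These 10 genes were taken by symbol from the 18483 genes of the expression matrices, and all 10 passed the filter on low counts. RNA was sequenced from neonatal rat ventricular myocytes (NRVMs), primary heart muscle cells of newborn Sprague-Dawley rats, in 4 groups of 3 samples. The groups were control siRNA (siNeg), control siRNA with phenylephrine (siNeg PE), an siRNA against the zinc importer gene Slc39a2 (siSlc39a2), and the same siRNA with PE (siSlc39a2 PE). PE, an agonist of the alpha-1 adrenergic receptor, makes these cells hypertrophic, and the labels give 36 h of it after transfection, while the culture methods of the study give a longer time. All cells were first seeded in medium with fetal bovine serum. They were moved to medium with insulin, transferrin and selenium before transfection or treatment. The siRNA had a single sequence, and the cells were enriched on a Percoll gradient, so some non-muscle cells could remain.

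GATA4, NKX2-5 and TBX5 bind near one another at many heart muscle genes and specify the cardiac lineage. TBX20 is a further T-box factor of the heart, and GATA6 is a close relative of GATA4. SRF binds the CArG box of contractile, cytoskeletal and immediate early genes, and myocardin (Myocd) is its muscle coactivator. The MEF2 factors (Mef2a, Mef2c and Mef2d) act on muscle structural and metabolic genes, and class IIa histone deacetylases hold them in check until hypertrophic signals release them.

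The Srf promoter is shown because, in the main test given below, Srf was the 1 member whose response to knockdown differed with PE. That result was lost in 1 of the alternative fits given below. The Srf gene also carries the binding site of its own product. RefSeq promoters (build GRCr8) were at hand for 7 of the 10 members and not for Gata4, Mef2c and Myocd. Windows from 250 bases before to 50 bases after the start were searched on both strands. Srf was the only one of the 7 with a CArG box, and it had a pair of them, starting 81 and 61 bases before the start. The capitals mark these boxes in the 250 bases before the start, on the plus strand at chr9:21923826-21924075. The same box is shown for Acta1, a skeletal actin gene that SRF is known to drive, 94 bases before its start on the minus strand at chr19:68784269-68784298.
Srf: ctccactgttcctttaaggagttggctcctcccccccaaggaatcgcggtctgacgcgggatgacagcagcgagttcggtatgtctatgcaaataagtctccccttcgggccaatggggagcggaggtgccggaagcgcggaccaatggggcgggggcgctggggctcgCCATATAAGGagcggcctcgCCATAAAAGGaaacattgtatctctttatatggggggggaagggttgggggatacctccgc
Acta1: tgcccaacacCCAAATATGGcttgggaagg

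A CArG box was present in 1.64% of the 33469 promoter windows searched. A MEF2 site, present in 3.29% of them, was found in 1 of the 7 members, Mef2a, 40 bases before its start. The CArG box and the MEF2 site are both rich in A and T and can overlap. None of the 7 windows held AGATAA (the GATA motif, in 11.6% of all windows), TNAAGTG (the NKX2-5 motif, 11.5%) or GGTGTGA (a T-box motif, 3.83%), nor the interferon-stimulated response element (3.92%). These matches describe letters in the window and not binding.

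Slc39a2 itself was measured at 1.97, 1.89 and 2.32 CPM (counts scaled to the normalized library size) in siNeg and at 0.726, 0.373 and 0.078 CPM in siSlc39a2. It was at 3.5, 6.96 and 6.68 CPM in siNeg PE and at 1.16, 0.862 and 1.38 CPM in siSlc39a2 PE. The knockdown samples did not overlap their controls, with log2 fold changes of -2.35 (adjusted p = 9.80e-04, edgeR) and -2.33 (adjusted p = 2.24e-04). Total counts were between 24065539 and 28603854 per sample. Cardiomyocyte markers summed to between 31800 and 33600 CPM in siNeg, 24900 to 25800 in siNeg PE, 21500 to 22100 in siSlc39a2 and 19300 to 20000 in siSlc39a2 PE. The fall in this sum was largely that of Myh6, whose counts were not whole and which was at 15860, 8199, 7407 and 3672 CPM on average in the same order. Tnnt2, the cardiac troponin T gene, was at 5082, 5218, 5366 and 5770 CPM and was not called in either PE comparison. With PE under knockdown, 3 of 8 cardiomyocyte markers rose and 2 fell, at a median log2 fold change of 0.22, although the sum was lower. The summed fibroblast markers were at 13900 to 18300, 9170 to 11800, 5340 to 5640 and 3580 to 4950 CPM in the same order. In siSlc39a2 against siNeg, 6 of 8 fibroblast markers fell and 1 rose, and 5 of 8 cardiomyocyte markers fell. The shares of all genes that rose and fell in each comparison are given below beside the members. Mural cell markers summed to 808 to 915 CPM in siNeg, 688 to 756 with PE alone, 483 to 565 with knockdown alone and 580 to 594 with both. In all samples, endothelial and macrophage markers were between 12.1 and 27.6 CPM, and epicardial markers were between 16.2 and 39.1 CPM. None of the marker genes was at 0 in every sample of a group. Levels of bulk RNA cannot tell fewer cells of a type from less RNA per cell, and the part of these markers in the results below was not tested.

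Length-normalized levels (FPKM, fragments scaled to transcript length and sequencing depth) placed the members far apart in siNeg. Nkx2-5 was highest at 220 FPKM, followed by Gata4 at 128, Mef2d at 97, Srf at 61.7 and Mef2a at 43 FPKM. Gata6 was at 37.6, Tbx20 at 19.8, Tbx5 at 11.8, Mef2c at 6.13 and Myocd at 3.79 FPKM. Nkx2-5 thus ranked above 96.7% of the 13967 genes that passed the filter on low counts in siNeg, and Myocd above 39% of them. Counts of a member in a sample were between 521 (Myocd) and 13300 (Gata4). The counts of Gata6 were not whole numbers in any of the 12 samples, as can arise when reads are split between loci. Its values are therefore uncertain, and the counts of the other 9 members were whole.

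**Figure D1:**
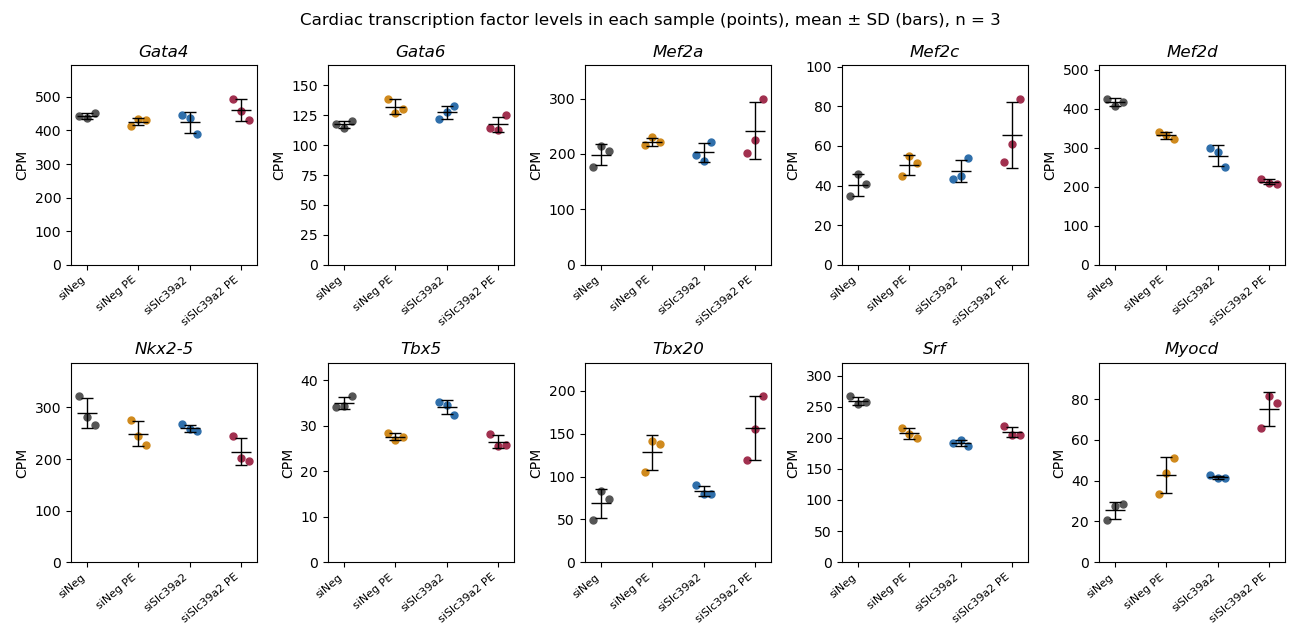
Level of each member in CPM (y axis, starting at 0) in the 3 samples of each of the 4 groups (x axis), with points for samples and bars for mean ± SD. Mef2d steps down and Myocd steps up from siNeg to siSlc39a2 PE, Tbx20 and Tbx5 separate the PE groups from the groups without PE, and Srf is lowest in siSlc39a2.

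Groups were tested on counts with edgeR, with adjustment over 13967 genes, and a gene was called at an adjusted p below 0.05. In siNeg PE against siNeg, 3 members were higher (24% of all genes tested were) and 3 were lower (25.7%). In siSlc39a2 against siNeg, 1 member was higher (22.8% of all genes) and 2 were lower (26.4%). In siSlc39a2 PE against siNeg PE, 1 was higher (29.2%) and 2 were lower (28.1%). In siSlc39a2 PE against siSlc39a2, 3 were higher (30.7%) and 3 were lower (29.3%). The share of members called was thus near that of all genes for PE, and 3 of 10 for either knockdown comparison. None of the 10 members changed by more than 1 on the log2 scale in any comparison, whereas 6.6% of all genes did so with PE in siNeg, 9.78% with knockdown, 11.6% with knockdown under PE and 10.5% with PE under knockdown. The median log2 fold change of the members was 0.05 with PE in siNeg and -0.0047 with knockdown, beside -0.01 and -0.02 over all genes.

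The interaction is the log2 fold change of knockdown under PE minus that of knockdown alone. It was called for 1 member, Srf, which was on the higher side (1.73% of all genes), and for none on the lower side (1.88%).

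**Figure D2:**
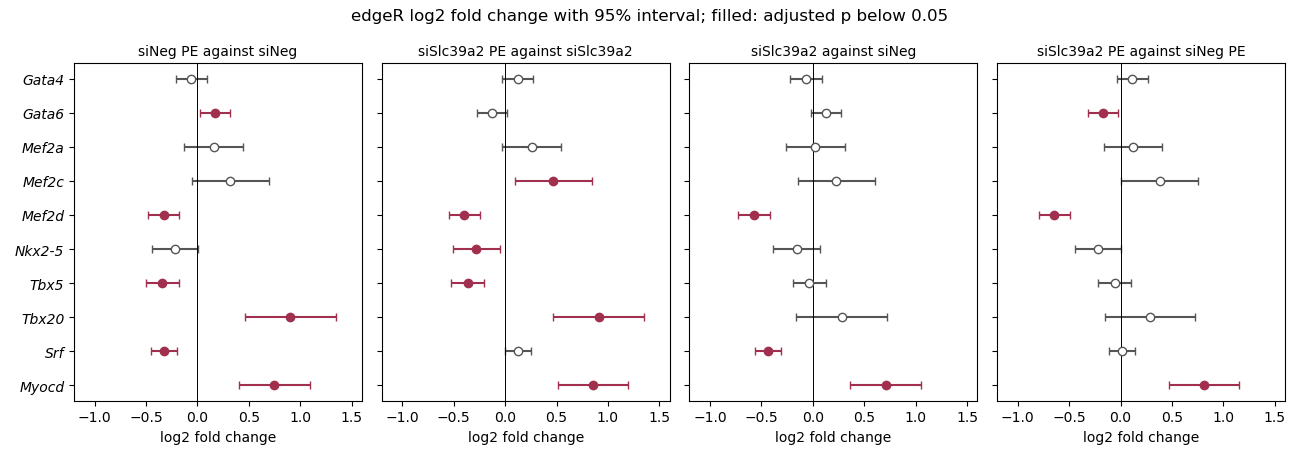
Log2 fold change (x axis) of each member (y axis) in the 4 comparisons, with 95% intervals computed from the edgeR F statistic, filled where the adjusted p was below 0.05. Myocd lies above 0 and Mef2d below 0 in all 4 comparisons, and Tbx20 and Tbx5 have intervals off 0 in the PE comparisons and not in the knockdown comparisons.

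Srf (NCBI gene 501099) fell with PE and with knockdown when each was applied alone, and not when knockdown was added to PE. It was at 267, 255 and 257 CPM in siNeg, 216, 206 and 199 with PE alone, 192, 196 and 187 with knockdown alone, and 219, 205 and 204 with both. All siNeg samples were above all others, all siSlc39a2 samples were below all others, and the PE groups overlapped.
The log2 fold change was -0.33 (SE 0.0546, adjusted p = 4.44e-04, edgeR) with PE and -0.44 (SE 0.0546, adjusted p = 2.90e-05) with knockdown. With knockdown under PE it was 0.02, with a 95% interval from -0.11 to 0.14 (adjusted p = 0.80). With PE under knockdown it was 0.13, with a 95% interval from 0.0019 to 0.25 (adjusted p = 0.0586), and was not called. This comparison was called with the replicate number as a block in edgeR (adjusted p = 0.021) and in the limma fits. With the trend with transcript length removed it was -0.06 (adjusted p = 0.544, edgeR). The interaction was 0.46 (SE 0.0772, adjusted p = 0.00551). It kept its direction and its call with each sample left out in turn, between 0.38 and 0.49, and missed the threshold at 0.40 (adjusted p = 0.0593) once the trend with transcript length described below was removed.

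Myocd (NCBI gene 246297), the SRF coactivator, rose in all 4 comparisons. It was at 20.6, 27.4 and 28.5 CPM in siNeg, 33.6, 43.6 and 51.2 with PE alone, 42.6, 41.1 and 41.2 with knockdown alone, and 65.8, 81.5 and 78.3 with both. The siNeg samples were below all others and the siSlc39a2 PE samples above all others, while the groups with a single treatment overlapped.
Its log2 fold change was 0.75 (SE 0.15, adjusted p = 0.00158, edgeR) with PE and 0.71 (SE 0.15, adjusted p = 0.0018) with knockdown. It was 0.81 with knockdown under PE (adjusted p = 4.58e-04) and 0.85 with PE under knockdown (adjusted p = 3.49e-04). The interaction of 0.11 had a 95% interval from -0.38 to 0.59 (adjusted p = 0.87), and the highest group mean was 2.95-fold the lowest. The ratio of Myocd to Srf in FPKM was 0.0614 ± 0.0106 (SD, n = 3) in siNeg, 0.126 ± 0.032 with PE alone, 0.131 ± 0.0036 with knockdown alone, and 0.213 ± 0.0294 with both.

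A list of 18 known SRF and myocardin targets, which holds smooth muscle, actin and immediate early genes, was read beside both regulators. With knockdown alone, 13 of the 18 fell and 2 rose, with a median log2 fold change of -0.43 beside -0.02 over all genes. With knockdown under PE, 5 rose and 3 fell, at a median of -0.04 beside 0.01; without siNeg PE replicate 3 this median was 0.08. PE in siNeg raised 5 and lowered 6, and 8 and 7 with the length trend removed. PE under knockdown raised 9 and lowered 7, and the 7 became 3 without siSlc39a2 PE replicate 2 and 4 without siSlc39a2 replicate 1 or replicate 2. The interaction was called higher for 9 and lower for 2, at a median of 0.51 beside 0.03 over all genes. With each sample left out in turn, it was called higher for 7 to 9 targets and lower for 1 or 2. With the length trend removed it was called higher for 10 and lower for 2. Of all genes tested in the main fit, 22.8% rose and 26.4% fell with knockdown alone, and 29.2% and 28.1% with knockdown under PE. These shares were 24% and 25.7% with PE in siNeg, and 30.7% and 29.3% with PE under knockdown. The interaction was called higher for 1.73% of all genes and lower for 1.88%.

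Cnn1, which encodes calponin of smooth muscle thin filaments, was at 27.9 ± 1.19 CPM (SD, n = 3) in siNeg, 166 ± 20.3 with PE alone, 12 ± 0.301 with knockdown alone, and 235 ± 4.75 with both. Knockdown thus went with less Cnn1 in the absence of PE and with more in its presence, and the interaction was 1.71 (SE 0.116, adjusted p = 1.20e-05, edgeR). The skeletal actin gene Acta1 was at 695, 2650, 272 and 2770 CPM on average in the same order of groups, with an interaction of 1.42 (adjusted p = 6.88e-05). The smooth muscle actin gene Acta2 was at 1250, 928, 467 and 845 CPM, with an interaction of 1.29 (adjusted p = 6.88e-05). Counts of Acta1, Acta2 and Actc1, the cardiac actin gene with an interaction of 0.57 (adjusted p = 0.00393), were not whole, so these actin values are uncertain. Tpm2, a tropomyosin gene, had an interaction of 0.98 (adjusted p = 1.58e-04), and Lmod1, which encodes the actin nucleator leiomodin, one of 0.87 (adjusted p = 0.0374). Fos, an immediate early gene, went the other way, from 4.53 CPM in siNeg to 12 in siSlc39a2 and from 9.97 in siNeg PE to 14.9 in siSlc39a2 PE, with an interaction of -0.82 (adjusted p = 0.0243).
Many of these targets are also expressed in fibroblasts and smooth muscle cells, whose summed markers were lower with knockdown alone than in siNeg as given above. The median interaction was 0.65 over the 7 mural markers, above that of the targets, and all 7 values were positive. They were spread widely, at 0.04 for Abcc9, 0.23 for Pdgfrb, 0.34 for Notch3, 0.66 for Kcnj8, 0.74 for Myh11 and 0.81 for Rgs5. Group means of Kcnj8 and Rgs5 were low, between 0.334 and 1.128 CPM. The interaction was called for 1 of the 7, Cspg4, at 0.65 (adjusted p = 0.00993, edgeR), which was named after its value was seen. Myh11 is on both lists. Over the 8 fibroblast markers the median interaction was 0.16 and none was called. The part of these cells in the change of the targets was not tested. CArG boxes were found in the windows of 3 of the 12 targets with a RefSeq promoter.

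**Figure D3:**
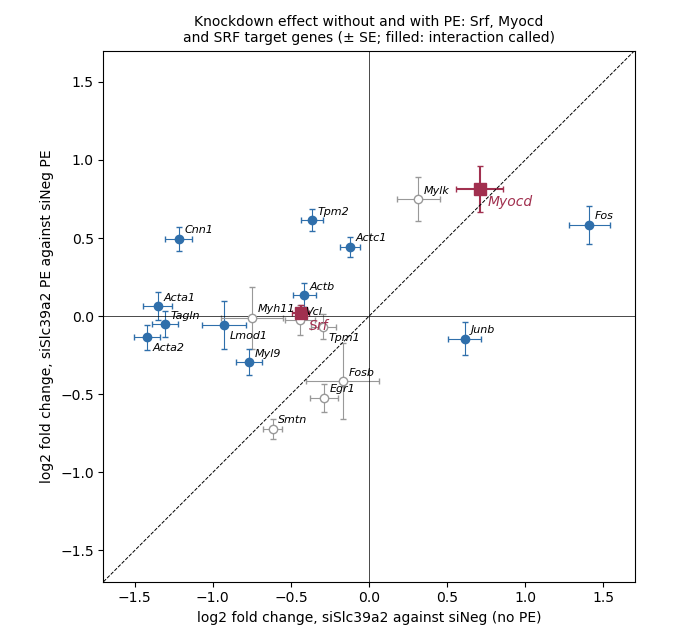
Log2 fold change of knockdown without PE (x axis) and with PE (y axis) for 18 SRF and myocardin targets (circles, filled where the interaction was called) and for Srf and Myocd (squares), ± SE, with the line of equal change dashed. Srf and 9 filled targets lie above the line, and Fos and Junb lie below it.

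Mef2d (NCBI gene 81518) fell in all 4 comparisons and was the only member whose groups were all apart. How many of all genes had 4 groups apart was not counted. It was at 426, 406 and 417 CPM in siNeg, 340, 332 and 323 with PE alone, 300, 289 and 251 with knockdown alone, and 220, 210 and 208 with both. Every sample of a group was above every sample of the next, and the mean of siNeg was 1.96-fold that of siSlc39a2 PE.
Mef2d changed by -0.33 on the log2 scale with PE (SE 0.0656, adjusted p = 0.00156, edgeR) and by -0.57 with knockdown (SE 0.0657, adjusted p = 1.44e-05). It changed by -0.64 with knockdown under PE (adjusted p = 4.87e-06) and by -0.40 with PE under knockdown (adjusted p = 2.69e-04). The interaction of -0.07 had a 95% interval from -0.28 to 0.14 (adjusted p = 0.78). The change with PE was smaller in all 3 limma fits after quantile normalization, at -0.11 on log2(FPKM + 1) (adjusted p = 0.155), -0.11 on log2(FPKM + 0.1) (adjusted p = 0.186) and -0.19 on log2(count + 1) (adjusted p = 0.0528), and was not called there.

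Mef2c (NCBI gene 499497) rose with PE under knockdown alone among the comparisons. It was at 34.6, 45.9 and 40.7 CPM in siNeg, 44.7, 55 and 51.5 with PE alone, 43.1, 45 and 53.9 with knockdown alone, and 52, 60.8 and 83.9 with both, so every pair of neighbouring groups overlapped. The log2 fold change in siSlc39a2 PE against siSlc39a2 was 0.47 (SE 0.161, adjusted p = 0.023, edgeR). It was 0.25 without siSlc39a2 PE replicate 3 (adjusted p = 0.131), 0.41 without siSlc39a2 replicate 1 (adjusted p = 0.0866) and 0.43 without siSlc39a2 replicate 2 (adjusted p = 0.0735). The corresponding value in siNeg cells was 0.32 (adjusted p = 0.118), and the interaction of 0.15 gave no difference between the 2 (adjusted p = 0.82). With knockdown under PE the log2 fold change was 0.38 (adjusted p = 0.059), and 0.52 without siSlc39a2 PE replicate 1 (adjusted p = 0.0102).
Mef2a (NCBI gene 309957) ranged from 177 to 300 CPM and was called in none of the 4 comparisons, with log2 fold changes from 0.02 to 0.26. The value of 0.26 was that of PE under knockdown, which became 0.35 (adjusted p = 0.0181) without siSlc39a2 PE replicate 1. All neighbouring groups of Mef2a overlapped.

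The makeup of the MEF2 family in FPKM differed between groups. Mef2d made up 66.4% ± 2.64 (SD, n = 3) of the FPKM of the 3 genes in siNeg, 59.5% ± 1.18 with PE alone, 57.4% ± 4.45 with knockdown alone, and 47.8% ± 5.97 with both. The range with knockdown alone (52.3% to 60.1%) overlapped those with PE alone (58.6% to 60.9%) and with both (41.3% to 53%). Mef2a took 29.4% in siNeg and 43.9% in siSlc39a2 PE, and Mef2c took 4.18% and 8.31%. The sum of the 3 was 146 ± 6.3 FPKM in siNeg, 147 ± 4.36 with PE alone, 132 ± 2.16 with knockdown alone, and 126 ± 12.5 with both. These shares carry the trend with transcript length and the shift in implied Mef2d length, both described below. With that trend removed, Mef2a changed by -0.01 to 0.05 and Mef2c by 0.12 to 0.23 on the log2 scale over the 4 comparisons. Neither was called in any of them.

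Among 16 MEF2 targets, 3 rose and 6 fell with PE, and 3 rose and 8 fell with knockdown. With knockdown under PE 4 rose and 7 fell, with PE under knockdown 6 rose and 6 fell, and the interaction was called for 1, Xirp2. The medians were 0.11, -0.25, -0.04, 0.06 and -0.06 on the log2 scale in this order. Over all genes tested they were -0.01, -0.02, 0.01, 0.01 and 0.03. Of all genes tested, 24% rose and 25.7% fell with PE, and 22.8% rose and 26.4% fell with knockdown. With knockdown under PE these shares were 29.2% and 28.1%, and with PE under knockdown 30.7% and 29.3%. Slc2a4, the insulin-responsive glucose transporter gene, was at 71.1 CPM in siNeg and 29.8 with knockdown, a change of -1.25 on the log2 scale (adjusted p = 1.14e-07, edgeR). Pgam2, a muscle glycolytic enzyme gene, went from 144 to 72.2 CPM with knockdown and changed by -1.63 on the log2 scale with knockdown under PE. Mb, the myoglobin gene, changed by -1.52 with PE, and Ckm, the muscle creatine kinase gene, by -1.13 with PE and -0.91 with knockdown. Xirp2, which encodes an actin-binding protein of the intercalated disc, went from 22.7 CPM in siNeg to 50.8 in siNeg PE, 30.1 in siSlc39a2 and 194 ± 58.6 (SD, n = 3) in siSlc39a2 PE, with an interaction of 1.53 (SE 0.367, adjusted p = 0.0395, edgeR).

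The T-box members moved in opposite directions with PE, and neither was called with knockdown. Tbx20 (NCBI gene 315497) was at 49.6, 82.8 and 73.3 CPM in siNeg, 105, 142 and 138 with PE alone, 90.3, 80 and 79.2 with knockdown alone, and 119, 156 and 194 with both. All samples with PE were above all without, and the groups with the same treatment overlapped. Its log2 fold change was 0.90 (SE 0.193, adjusted p = 0.00233, edgeR) with PE in siNeg cells and 0.91 (SE 0.192, adjusted p = 0.00143) under knockdown. With each sample left out in turn, both lay between 0.72 and 1.06. For knockdown it was 0.28 both without and with PE (adjusted p = 0.25 and 0.217), with 95% intervals from -0.17 to 0.72 and from -0.15 to 0.72.
Tbx5 (NCBI gene 304514) was at 34, 34.3 and 36.5 CPM in siNeg, 28.3, 26.8 and 27.6 with PE alone, 35.3, 34.6 and 32.4 with knockdown alone, and 28.1, 25.6 and 25.8 with both. All samples with PE were below all without. It changed by -0.34 (SE 0.0695, adjusted p = 0.00167, edgeR) with PE and by -0.36 (SE 0.0694, adjusted p = 7.24e-04) with PE under knockdown. For knockdown the values were -0.03 (95% interval -0.19 to 0.13) and -0.05 (-0.22 to 0.11). The ratio of Tbx20 to Tbx5 in FPKM was 1.67 ± 0.389 (SD, n = 3) in siNeg, 3.96 ± 0.858 with PE alone, 2.09 ± 0.0963 with knockdown alone, and 5.03 ± 1.37 with both.

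Gata4 (NCBI gene 54254) was called in no comparison. It ranged from 389 to 495 CPM over the 12 samples, the widest log2 fold change was 0.12, and the interaction of 0.18 had a 95% interval from -0.04 to 0.40 (adjusted p = 0.38, edgeR).
Gata6 (NCBI gene 29300), whose counts were not whole as given above, was at 118, 114 and 120 CPM in siNeg and 139, 127 and 130 with PE alone. It was at 122, 128 and 133 CPM with knockdown alone, and 114, 113 and 125 with both. Its siNeg samples were below those of siNeg PE and of siSlc39a2, and its siSlc39a2 PE samples were below those of siNeg PE. It was called higher with PE at 0.17 (SE 0.0625, adjusted p = 0.0356, edgeR) and lower with knockdown under PE at -0.17 (SE 0.0624, adjusted p = 0.0313).
The first call was lost without siNeg replicate 1 (0.18, adjusted p = 0.065), siNeg replicate 2 (0.15, adjusted p = 0.114), siNeg replicate 3 (0.19, adjusted p = 0.0505), siNeg PE replicate 1 (0.13, adjusted p = 0.118) or siNeg PE replicate 3 (0.19, adjusted p = 0.0601). The second was lost without siNeg PE replicate 1 (-0.13, adjusted p = 0.121), siSlc39a2 PE replicate 1 (-0.16, adjusted p = 0.0832) or siSlc39a2 PE replicate 2 (-0.14, adjusted p = 0.122). For PE under knockdown the value was -0.13 (adjusted p = 0.0996), and -0.17 without siSlc39a2 PE replicate 3 (adjusted p = 0.0438). The interaction of Gata6 was -0.30 (adjusted p = 0.0918), and -0.34 with the length trend removed (adjusted p = 0.0234). The ratio of Gata6 to Gata4 in FPKM lay between 0.257 and 0.381 in all samples.

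Nkx2-5 (NCBI gene 114109) fell with PE under knockdown, and its other comparisons were not called in the main edgeR fit. It was at 322, 281 and 266 CPM in siNeg, 276, 244 and 228 with PE alone, 267, 258 and 254 with knockdown alone, and 244, 202 and 196 with both. All neighbouring groups overlapped, and siSlc39a2 PE lay below siSlc39a2. The log2 fold change of PE under knockdown was -0.28 (SE 0.0978, adjusted p = 0.0253, edgeR). This call was lost without siSlc39a2 PE replicate 2 (-0.24, adjusted p = 0.0943) or replicate 3 (-0.22, adjusted p = 0.101), and without siSlc39a2 replicate 1 (-0.26, adjusted p = 0.0768) or replicate 2 (-0.28, adjusted p = 0.056).
PE in siNeg cells gave -0.22 (adjusted p = 0.0812), and -0.29 without siNeg PE replicate 1 (adjusted p = 0.0325). Knockdown under PE gave -0.22 (adjusted p = 0.0691), -0.28 without siNeg PE replicate 3 (adjusted p = 0.0397) and -0.33 without siSlc39a2 PE replicate 1 (adjusted p = 0.0102). Knockdown alone gave -0.16 (adjusted p = 0.197). When the replicate number was added to the edgeR fit as a block, Nkx2-5 was called lower in all 4 comparisons. The adjusted p was then 0.00415 with PE, 0.0261 with knockdown, 0.00284 with knockdown under PE and 5.04e-04 with PE under knockdown. The replicate numbers are not stated to pair cultures.

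Targets of GATA4, NKX2-5 and TBX5 were counted over 15 genes of a list of 16. With PE 5 rose and 5 fell, with knockdown 4 rose and 7 fell, with knockdown under PE 3 rose and 9 fell, and with PE under knockdown 4 rose and 6 fell. The medians were 0.07, -0.29, -0.36 and 0.04 on the log2 scale, beside -0.01, -0.02, 0.01 and 0.01 over all genes tested. The shares of all genes that rose and fell are given above beside the MEF2 targets. The natriuretic peptide genes rose in all 4 comparisons and moved furthest of the list with PE. Nppb was at 8.24 CPM in siNeg, 300.0 with PE alone, 57.7 with knockdown alone, and 1510 with both, and changed by 5.19 with PE and 2.81 with knockdown (edgeR, adjusted p = 8.51e-10 and 2.37e-08). Nppa was at 112, 2760, 218 and 5120 CPM in the same order. Myl7, an atrial myosin light chain gene, was at 53.8, 35.8, 26.4 and 11.1 CPM and fell in all 4 comparisons. Gja5, the connexin 40 gene, was at 92.2, 43.2, 149 and 49.2 CPM, and fell with PE in both siNeg and siSlc39a2 cells and rose with knockdown alone. Myh6, the alpha myosin heavy chain gene, was at 0.467-fold of siNeg with knockdown, with counts that were not whole. Corin, the gene of the protease that activates natriuretic peptide A, was at 48.6, 42.3, 32.9 and 12.6 CPM and was the 1 gene of the list with a called interaction, at -1.19 (adjusted p = 0.00115); its counts were not whole either.

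Relatives of the members and other developmental heart factors formed a list of 28 genes, of which 24 were tested. Of these, 3 rose and 6 fell with PE, 5 rose and 4 fell with knockdown, 5 rose and 8 fell with knockdown under PE, and 6 rose and 10 fell with PE under knockdown. The medians were -0.11, 0.11, -0.09 and -0.37 on the log2 scale, beside -0.01, -0.02, 0.01 and 0.01 over all genes tested. The shares of all genes that rose and fell are given above beside the MEF2 targets. Gata5, the remaining cardiac GATA gene, was at 149, 102, 127 and 70.9 CPM in siNeg, siNeg PE, siSlc39a2 and siSlc39a2 PE and changed by -0.84 with PE under knockdown (adjusted p = 1.36e-05, edgeR). The ventricular homeobox gene Irx4 was at 178, 159, 177 and 102 CPM, with an interaction of -0.64 (adjusted p = 0.00379), and Irx3 was at 115, 73.8, 109 and 48.3 CPM, with an interaction of -0.52 (adjusted p = 0.03). These 2 were the only relatives with a called interaction. Meis2, a homeobox gene, was at 23.4, 35.6, 36 and 61.5 CPM and rose by 0.62 with knockdown and 0.79 with knockdown under PE. Hand2, a basic helix-loop-helix factor of the right ventricle, rose by 0.62 with knockdown (adjusted p = 0.00105). Nfatc1, a calcineurin-responsive factor, changed by -0.94 with knockdown under PE, and Heyl, a Notch target, by -0.89 with PE.

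Cofactors of the members formed a list of 24 genes. PE raised 4 and lowered 11, knockdown raised 5 and lowered 6, knockdown under PE raised 6 and lowered 8, and PE under knockdown raised 5 and lowered 10. The medians were -0.02, 0.03, 0.07 and -0.03 on the log2 scale, beside -0.01, -0.02, 0.01 and 0.01 over all genes tested. The shares of all genes that rose and fell are given above beside the MEF2 targets. Ankrd1, a stress-induced muscle ankyrin repeat gene, was at 363 ± 24.7 CPM (SD, n = 3) in siNeg, 1810 ± 249 with PE alone, 847 ± 104 with knockdown alone, and 5750 ± 533 with both. Csrp3, the muscle LIM protein gene, was at 340, 623, 465 and 1260 CPM, with an interaction of 0.56 (adjusted p = 0.04, edgeR). Hopx, which encodes a homeodomain protein that binds SRF rather than DNA, was at 26.2, 18.7, 27.6 and 13.1 CPM, with an interaction of -0.60 (adjusted p = 0.00993). Csrp3 and Hopx were the 2 cofactors with a called interaction. The SRF coactivator gene Mrtfb was at 3.03, 3.41, 2.43 and 2.02 CPM and changed by -0.75 with knockdown under PE (adjusted p = 0.0134). Hdac7, a class IIa histone deacetylase gene, changed by -0.61 with knockdown, and Camta2, an NKX2-5 coactivator gene, by -0.48, both with counts that were not whole.

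The count and the FPKM of a gene together give the length of its transcripts in bases, weighted by how much each isoform was used. For Mef2d this length was between 4043 and 4096 bases in siNeg, 3747 and 3814 with PE alone, 3850 and 3868 with knockdown alone, and 3547 and 3604 with both. The 4 groups were apart, and the mean changed by -7.21% with PE, -5.09% with knockdown, -5.32% with knockdown under PE and -7.43% with PE under knockdown. Mef2d was the 1 member that shifted by over 5% with groups apart, which was the case for 2.17%, 2.43%, 2.95% and 2.66% of 10421 genes with at least 1 FPKM in every sample. For Myocd the mean length was 6381 bases in siNeg, 6544 with PE alone, 6629 with knockdown alone, and 6779 with both. It lengthened by 2.55% with PE, 3.89% with knockdown and 3.59% with knockdown under PE, with groups apart, and by 2.26% with PE under knockdown, with groups that overlapped. Shifts of the group means of the other 8 members were at most 2.01% in size. Which isoforms changed cannot be read from values per gene.

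**Figure D4:**
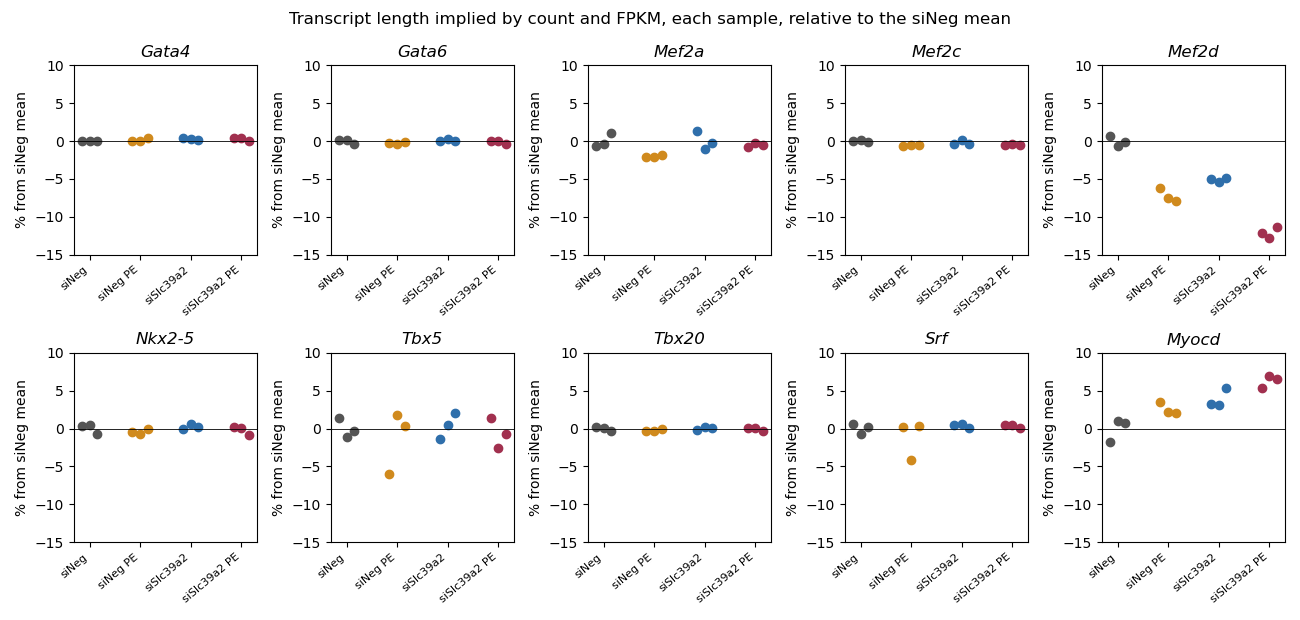
Transcript length implied by count and FPKM in each sample, in percent from the siNeg mean of the gene (y axis), for the 4 groups (x axis). Mef2d lies below 0 in every treated group and lowest in siSlc39a2 PE, Myocd lies above 0 in every treated group, and the other members stay near 0 except for single samples of Tbx5 and Srf in siNeg PE.

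Fold changes depended on transcript length across all genes. Over 8 length groups of 13073 genes, the median log2 fold change with PE went from -0.21 in the shortest to 0.23 in the longest, and from -0.14 to 0.08 with knockdown. The range was -0.12 to 0.15 with knockdown under PE, -0.22 to 0.30 with PE under knockdown, and 0.01 to 0.07 for the interaction. Samples of a group differed in this trend too. The shortest genes of siNeg replicate 1 lay 0.32 above their mean over all samples in the median on the log2 scale, and its longest genes lay -0.39 from it, beyond the other siNeg samples.
Replicate 1 was also the lowest of its group for Tbx20, Myocd, Mef2a and Mef2c and the highest for Nkx2-5 and Srf in siNeg, siNeg PE and siSlc39a2 PE. In siSlc39a2 this held for Mef2c and Nkx2-5 and not for the other 4. Without siNeg replicate 1, every member called with PE in siNeg other than Gata6 stayed called.

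When the length trend of each sample was removed, Myocd was higher by 0.54 with PE and 0.64 with knockdown, Tbx20 was higher by 0.81 with PE, and Tbx5 changed by -0.39 with PE (edgeR, adjusted p = 6.67e-04, 1.27e-04, 0.00174 and 5.35e-04). Mef2d changed by -0.45 with PE and -0.60 with knockdown, and Srf by -0.46 and -0.48, so that these falls were at least as large as before. The calls of Gata6 with PE (0.11, adjusted p = 0.125) and of Mef2c with PE under knockdown (0.20, adjusted p = 0.126) were lost. Nkx2-5 was called lower with knockdown under PE (-0.20, adjusted p = 0.0218), and Gata6 with PE under knockdown (-0.24, adjusted p = 0.00273). The cause of the length trend was not tested.

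**Figure D5:**
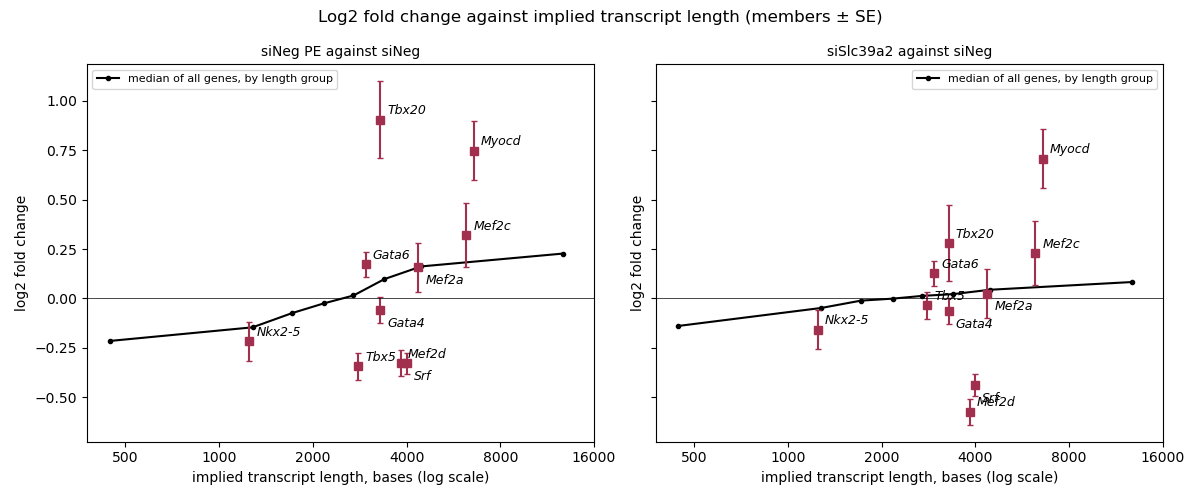
Log2 fold change (y axis) against implied transcript length in bases (x axis, log scale) with PE (left) and with knockdown (right), with the median of all genes in 8 length groups as a line and the members as squares ± SE. Mef2a and Nkx2-5 lie near the line in both panels, whereas Srf and Mef2d lie below it and Myocd above it in both.

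The group means of Myocd, Tbx20 and Mef2d spanned the widest ranges of the 10 members, at 1.57, 1.19 and 0.97 on the log2 scale. Likeness to them was measured as the root mean square difference of centred group means of log2 CPM over the 4 groups. The genes nearest to Myocd were Smc6, Heatr1 and LOC102549842 (0.0204 to 0.0225), those nearest to Tbx20 were LOC100910717, Suv39h2 and Fam169a (0.0166 to 0.0211), and those nearest to Mef2d were Zfp580, Zfyve21 and Gpr135 (0.0102 to 0.0148). Within 0.2 there were 1050 genes for Myocd, 907 for Tbx20 and 2020 for Mef2d, so these patterns over 4 groups were shared by many genes.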

How the data were processed

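RNA of 12 NRVM samples was sequenced in 4 groups of 3. The authors deposited expected counts per gene, not normalized, and FPKM of the same 18483 genes; 78.7% of the counts were whole. The submitters' processing notes name HISAT, Bowtie2 and the build Rnor_6.0, and the counting program and annotation are not given in the sources used here. The study's methods call the 3 samples of a group independent biological replicates and do not say whether they came from separate cell preparations. Chi-square per degree of freedom between samples of a group was 4.67 to 33.8, so none was a copy.

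Counts were rounded, filtered (filterByExpr, 13967 genes kept), normalized by TMM and fitted jointly over the 4 groups with edgeR 4.0.16 (R 4.3.3; 8 residual degrees of freedom), using its quasi-likelihood F-test, adjusted p-values by Benjamini-Hochberg and a prior count of 2 for log2 CPM. The study's methods name limma, which was an alternative (limma 3.58.1, after quantile normalization), as were DESeq2 1.42.0, RLE factors, no filter, single comparisons, a replicate block and leaving out samples. Removal of the length trend (lowess of log2 CPM on implied length, span 0.3, as an offset) was chosen after seeing the data. Implied length is the count divided by FPKM and total count. The edgeR fit was tested on simulated data (siSlc39a2 against siNeg, 13810 genes) and recovered 31 of 67 genes changed by 0.5, 55 of 67 by 1 and 66 of 66 by 2 on the log2 scale, with 7 false calls.

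Members and gene lists were chosen with earlier results of these data known. Named were all members, Slc39a2, from each list up to 3 called genes per comparison with the largest change, and the 3 genes nearest in pattern to the 3 members of widest range. List genes with no test were Tbx1, Isl1, Hey1, Shox2, Bmp10, Emcn and C1qb. Junb and the interactions of the mural markers were named after their values were seen.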

Additional observations from a re-analysis of the deposited data

Results flagged for a closer look

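Among the members, the knockdown effect differed with and without PE for Srf in the test over all samples, with an interaction of 0.46 on the log2 scale (SE 0.0772, adjusted p = 0.00551, edgeR). With the length trend removed, Srf was not called (0.40, adjusted p = 0.0593) and Gata6 was (-0.34, adjusted p = 0.0234). Of the genes named from the lists, the SRF targets Cnn1 (1.71), Acta1 (1.42), Acta2 (1.29), Tpm2 (0.98), Lmod1 (0.87) and Actc1 (0.57) and the genes Xirp2 (1.53) and Csrp3 (0.56) had a more positive knockdown effect in the presence of PE. Corin (-1.19), Fos (-0.82), Irx4 (-0.64), Hopx (-0.60) and Irx3 (-0.52) had a more negative one. Each was called by the test of the interaction itself, at adjusted p between 1.20e-05 (Cnn1) and 0.04 (Csrp3).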

How the results depend on the processing

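With a replicate block, 5 members were called in siSlc39a2 PE against siNeg PE in place of 3, with Mef2c and Nkx2-5 added. The interaction was called for 2 members in place of 1 under the block, under DESeq2 and under limma with log2(FPKM + 1), where Gata6 joined Srf. All other counts of members called were within 1.5 times the main count. Leaving out single replicates gave 5 or 6 members called with PE, 3 with knockdown, 2 to 4 with knockdown under PE, 4 to 7 with PE under knockdown and 1 for the interaction. Counts over all genes moved too when a sample of the groups compared was left out. They were 5117 to 6875 with PE, 5805 to 6249 with knockdown and 7009 to 8024 with knockdown under PE. For PE under knockdown they were 7035 to 8548, and for the interaction 255 to 537. Of the values of single members under all alternatives, 747 kept their side of the threshold, 28 came to pass it and 25 no longer passed it. No call reversed its direction, but some estimates that were not called changed sign, such as Gata4 with PE (-0.15 to 0.06). Same-numbered samples of siNeg, siNeg PE and siSlc39a2 PE correlated in their deviations by 0.121 to 0.191 on average for a pair of groups, and other-numbered ones by -0.0947 to -0.0612. They did not all deviate together (correlations across genes as low as 0.0535 for siNeg with siNeg PE, 0.00387 for siNeg PE with siSlc39a2 PE and -0.0107 for siNeg with siSlc39a2, and 7 of 12 samples closest to a sample of their own number), so the numbers were not taken as pairs.

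At 3 samples a group, a member that was not called is not shown to be unchanged. Changes of 0.5 on the log2 scale were recovered in 31 of 67 simulated cases. Few genes were changed in that simulation and many were called in the data, so this share need not hold for the members. Counts of Gata6 were uncertain, and target lists other than that of SRF were not recounted with samples left out. Marker sums moved with the groups, and isoforms could not be resolved.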
